A study of Rattus norvegicus with 6 samples.

Results

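The genes described here encode the mitochondrial metabolite carriers and the machinery that imports proteins into mitochondria. They were taken by symbol, as every gene whose name begins with Slc25a, Timm or Tomm followed by a number. This gave 72 of the 33508 genes in the table, of which 48 were carriers and 24 belonged to the import machinery, and 57 of them (36 carriers and 21 import genes) had enough reads to be tested.

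RNA was sequenced from rat bone marrow mesenchymal stem cells (BMSCs) that carried a lentivirus for FNDC5 (BMSCs-OE-FNDC5, 3 libraries) or a vector control (BMSCs-OE-NC, 3 libraries). FNDC5 is a membrane protein from which the hormone irisin is cleaved. All 6 libraries came from cells kept for 24 h without glucose or serum under 1% O2, 94% N2 and 5% CO2 (hypoxia/serum deprivation, H/SD), so both groups carried a lentivirus, both were under H/SD, and no culture in normal oxygen was among them. The cells were grown from the femurs and tibias of male Sprague-Dawley rats aged 2 months, had been passaged 3 times, and met the virus (10 per cell, the multiplicity of infection) over 72 h. The labels call the replicates of a group biological. Whether they stem from different animals or from different cultures is not stated, so the p-values measure the spread between these libraries. The promoter that drives FNDC5 in the vector was not given in the sources used here.

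The control libraries held 17430287 to 17965722 counts each and the BMSCs-OE-FNDC5 libraries 16640635 to 17229490. Fndc5 itself had 17 to 25 counts in the BMSCs-OE-NC libraries and 64195 to 65589 in the BMSCs-OE-FNDC5 libraries. Of the mesenchymal stem cell markers, all 8 of 8 were tested. Thy1, Cd44, Eng and Cd9 rose by 0.26 to 1.29 on the log2 scale, and Nt5e, Itgb1, Alcam and Vcam1 fell by 1.02 to 1.54. Most markers of other cell types were at or near 0, with Cd14, Egfl7 and Stmn2 as exceptions. Of 10 macrophage markers 1 was tested and 7 had no count, with summed levels of 2.39 to 2.99 CPM (counts scaled per library by the TMM method) in the control and 3.31 to 4.63 after FNDC5 overexpression. The sums for erythroid markers were 1.16 to 1.74 and 3.27 to 3.97 CPM, with 6 genes at 0. Endothelial markers summed to 51.8 to 55.2 and 90.5 to 94.0 CPM, nearly all from Egfl7, again with 6 genes at 0. The monocyte gene Cd14 rose from 98.4 to 197 CPM while Ptprc and Hba-a1 had no count. The label for RNA extraction speaks of retinas. Of 12 markers of retina and neurons 6 had no count, and their sum was 16 to 20.0 CPM in the control and 42.0 to 45.0 CPM after FNDC5 overexpression, mostly from Stmn2. The part of these markers in the results below was not tested.

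Mitochondria make most of their proteins outside, in the cytosol, and bring them in through membrane complexes. The TOM complex is the entry gate of the outer membrane, small TIM proteins escort hydrophobic precursors across the intermembrane space, the TIM23 complex with its motor takes precursors with a presequence into or across the inner membrane, and the TIM22 complex inserts multispanning proteins into it. The SLC25 carriers are the main clients of the TIM22 route. Once inserted, most of them exchange a small set of solutes between cytosol and matrix, such as ADP for ATP, phosphate, citrate, amino acids, iron or cofactors. In BMSCs the carriers link glycolysis in the cytosol to respiration, and the cells studied here had neither glucose nor ample oxygen.

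Carriers moved in both directions, and import genes mainly upwards. Here "rose" and "fell" mean an adjusted p under 0.05 by edgeR's quasi-likelihood test with Benjamini-Hochberg adjustment over the 12104 genes tested. Of the 36 carriers tested, 14 rose, 12 fell and 10 did not pass (38.9% rose and 33.3% fell), with a median log2 fold change of -0.00. Of the 21 import genes, 13 rose, 1 fell and 7 did not pass (61.9% and 4.76%), with a median of 0.44. Over all genes tested, 36.9% rose and 38.8% fell, 75.7% in either direction, and the median was -0.04. The carriers' shares were near this background. The import genes' shares were not. The next paragraph sets both classes beside genes of like length. Past an absolute log2 fold change of 1 as well, 1 carrier rose and 4 fell, and 2 import genes rose and none fell, where 9.84% and 17.5% of all genes did so. The libraries of the groups did not overlap in 28 of 36 carriers and 14 of 21 import genes, where 78.3% of all genes showed this. In a bulk sample, fewer cells and less RNA per cell cannot be told apart.

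The split between the classes moved with gene length and expression level, and the number of calls in each class moved with scaling. Across all genes the fold change declined with the length of the gene, from a median of 0.65 in the shortest eighth (49 to 956 bases) to -0.84 in the longest (4723 to 29464 bases). Import genes were short, with a median of 1100 bases, against 1732.5 for carriers and 2262 for all genes. In the shortest eighth the 6 import genes had a median of 0.74 against 0.65 for all genes, and in the next (957 to 1434 bases) the 8 import genes had 0.48 against 0.36. The 5 import genes of 1435 to 1835 bases had 0.27 against 0.24, and the 2 of 2801 to 3530 bases (Timm29 and Tomm5) had 0.19 against -0.26. Carriers had 0.25 (6 genes) against 0.36 at 957 to 1434 bases, and 0.09 (15 genes) against 0.24 at 1435 to 1835. They had 0.58 (3 genes) against 0.08 at 1836 to 2262 bases, and -0.78 (3 genes) against -0.12 at 2263 to 2800. At 2801 to 3530 bases 4 carriers had -0.15 against -0.26, and at 3532 to 4722 bases 3 had -0.32 against -0.43. Single carriers had -1.17 against 0.65 in the shortest eighth and -0.75 against -0.84 in the longest. With each library's trend with length removed, 10 import genes rose and 6 fell, and their median was 0.06. With library size alone as the scale, 9 import genes rose and 6 fell, while 8 carriers rose and 19 fell. The median of all genes shifted by -0.37, to -0.41. Those of both classes went down with it, to 0.07 for import genes and -0.37 for carriers. A split by level was added after the values were seen. FPKM values here are fragments per kilobase of gene over a constant that the authors set for each library. Where the mean was 10 FPKM or more, 11 of 16 carriers and 12 of 17 import genes rose, where 60.3% of all such genes did so, and 4 carriers and 1 import gene fell, where 26.2% did. Below that level 3 of 20 carriers rose and 8 fell, and 1 of 4 import genes rose and 0 fell, where 18.1% and 48.8% of all such genes did.

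**Figure D1:**
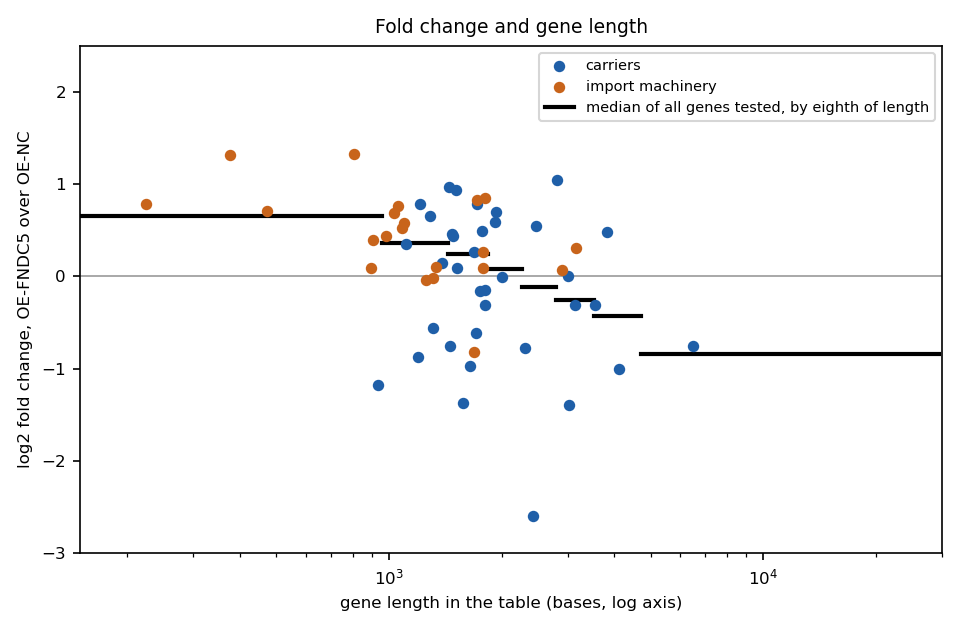
Log2 fold change, positive where BMSCs-OE-FNDC5 was higher, against gene length in bases on a log axis, with 1 point for each of the 57 members tested and black bars for the median of all genes in each eighth of length. Of the 21 import genes 19 lie at 1835 bases or less, where the median of all genes is above 0, and the low point at -2.60 is Slc25a22.

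Some members kept their call under every alternative tried, the length and scaling settings included. Of the 14 carriers that rose, 8 did so in all 18 alternatives, as did 6 of the 12 that fell. Of the 13 import genes that rose, 8 kept the call in all 18, and so did Tomm70, the import gene that fell. These members are named with their roles below. The share of all genes that kept a call in this way was not counted.

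**Figure D2:**
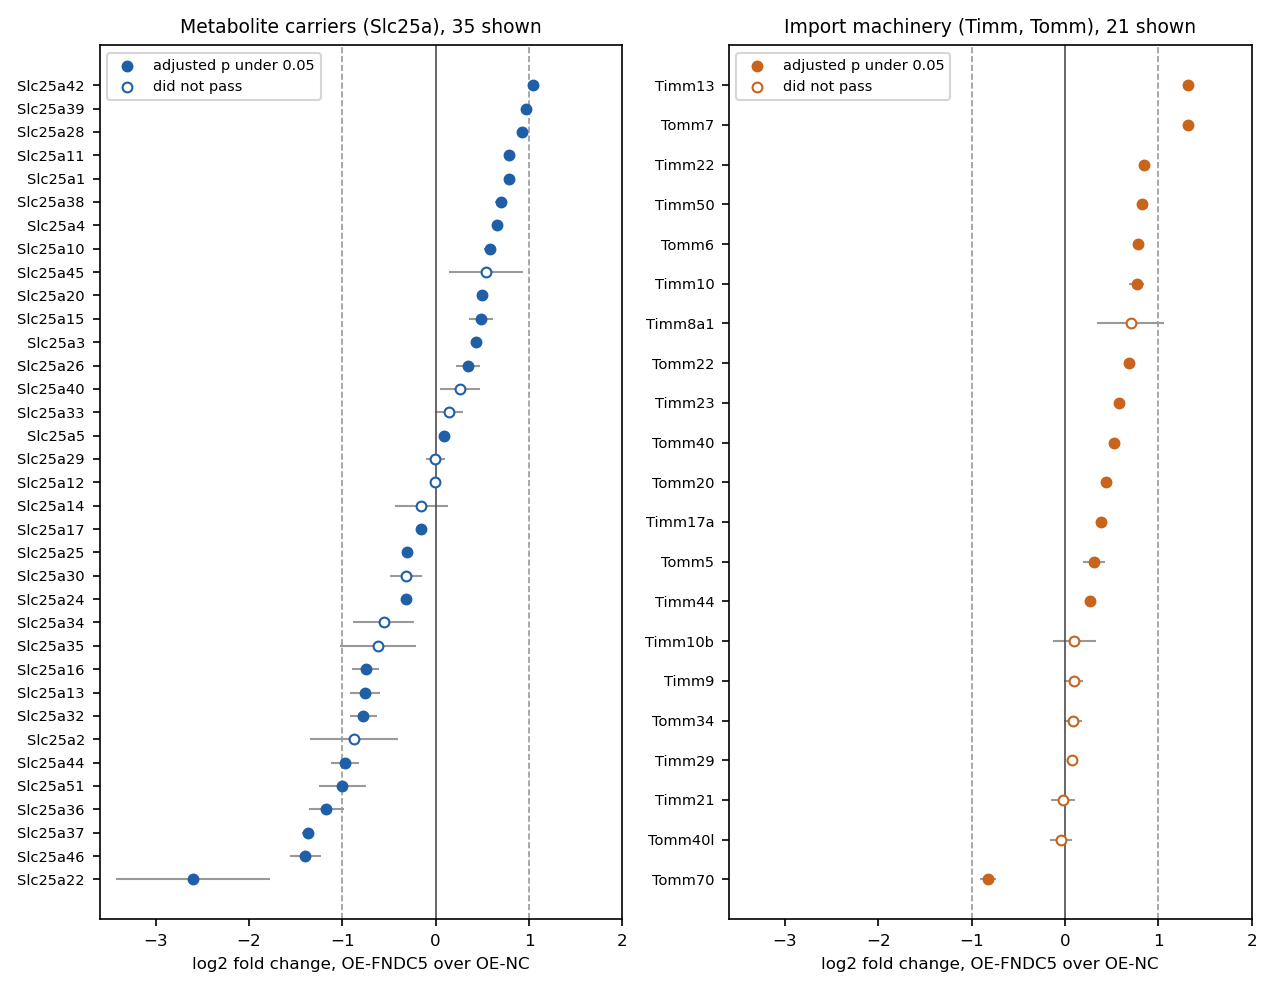
Log2 fold change with SE for the members reported, carriers in one panel and import genes in the other, and dashed lines at -1 and 1. Slc25a42 lies farthest to the right among carriers at 1.05, Timm13 and Tomm7 among import genes at 1.32, and Tomm70 is the import gene that fell.

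Levels per length can be set side by side between genes, so FPKM was used for that. In the control the highest carriers were Slc25a4 at 533 ± 4.44, Slc25a3 at 340 ± 14.3 and Slc25a5 at 189 ± 4.72 FPKM (SD, n = 3). These 3 genes, which carry ADP, ATP and phosphate, made up 63.1% of the summed carrier FPKM in BMSCs-OE-NC and 63.0% in BMSCs-OE-FNDC5. The summed FPKM of all carriers was 1684 ± 14.4 in BMSCs-OE-NC and 2423 ± 16.1 in BMSCs-OE-FNDC5, a ratio of 1.44. The import genes summed to 1658 ± 5.24 and 2893 ± 90.2 FPKM, a ratio of 1.75. Tomm6 alone held 34.0% and 34.1% of the import sum, and its length in the table is only 225 bases. Without Tomm6 the import sums were 1094 and 1906 FPKM, a ratio of 1.74. On the CPM scale, which is not divided by length, the ratios were 1.37 for carriers and 1.59 for import genes. These ratios depend on the scaling. Over library size alone, added after the values were seen, they were 1.06 for carriers and 1.23 for import genes without division by length, and 1.09 and 1.33 with it.

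**Figure D3:**
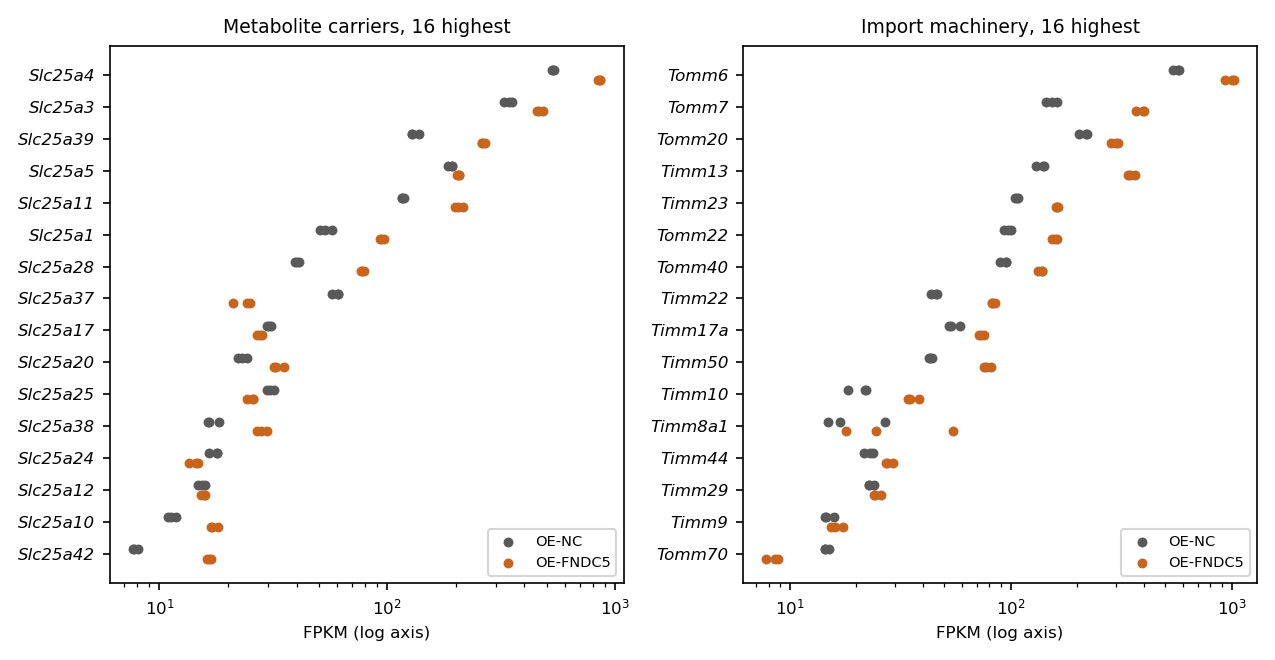
FPKM in each single library (3 per group) for the 16 members of each class with the highest mean, on a log axis. Tomm6 leads the import genes with means of 564 FPKM in BMSCs-OE-NC and 987 in BMSCs-OE-FNDC5, and Slc25a4 leads the carriers with means of 533 and 853.

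The 3 tested carriers of adenine nucleotides and phosphate all rose. They lay at 10 FPKM or more, where 60.3% of all genes rose. Slc25a4 encodes ANT1, the ADP/ATP translocase that dominates in heart and muscle. It measured 692, 703 and 701 CPM in the BMSCs-OE-NC libraries and 1110, 1101 and 1086 in the BMSCs-OE-FNDC5 libraries. Every BMSCs-OE-FNDC5 library lay above every control, and the log2 fold change was 0.65 (SE 0.02, adjusted p = 3.1e-10). Slc25a5 encodes ANT2, the form found in most proliferating cells, and measured 296, 297 and 285 CPM against 307, 314 and 313. The groups did not overlap, but the rise of 0.09 (SE 0.03, adjusted p = 0.016) turned to -0.02 with upper-quartile scaling, -0.22 with the length trend removed and -0.28 with library size only. Without BMSCs-OE-NC replicate 3 its adjusted p was 0.12. Slc25a3, the phosphate carrier, rose by 0.43 (SE 0.03, adjusted p = 4.6e-07), but was at 0.06 (adjusted p = 0.10) with library size only. ANT2 was thus a smaller share of the pair, with Slc25a5 at 26.2% of the FPKM of Slc25a4 and Slc25a5 in the control and 19.4% in BMSCs-OE-FNDC5.

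The 250 bases before the start of these translocase genes are shown because the pair differed in its change. Both are RefSeq sequence of the GRCr8 assembly, 5′ to 3′ on the strand of the gene, and capitals mark GGGCGG or its reverse complement CCGCCC, the core of the GC box read by Sp factors such as Sp1, which the study followed. Slc25a4 (chr16:52805271-52805520, plus strand) holds none and Slc25a5 (chrX:120897366-120897615, plus strand) holds 3 in these 250 bases. In the 300-base promoters, which run 50 bases past the start and were used for all shares below, they hold 1 and 3.
Slc25a4: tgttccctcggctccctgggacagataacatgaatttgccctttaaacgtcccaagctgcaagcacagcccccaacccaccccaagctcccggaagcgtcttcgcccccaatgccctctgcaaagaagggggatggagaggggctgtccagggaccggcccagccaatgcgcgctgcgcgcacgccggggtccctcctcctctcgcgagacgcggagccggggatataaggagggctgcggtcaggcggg
Slc25a5: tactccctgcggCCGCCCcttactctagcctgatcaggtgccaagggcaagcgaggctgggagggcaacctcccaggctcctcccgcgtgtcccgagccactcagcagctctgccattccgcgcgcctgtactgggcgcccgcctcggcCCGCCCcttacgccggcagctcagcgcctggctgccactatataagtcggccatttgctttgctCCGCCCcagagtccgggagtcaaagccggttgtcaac

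In the table Slc25a4 lies at chr16:49266903-49270698 on the plus strand, and the build of the table's coordinates was not given in the sources used here. Slc25a4 and Slc25a5 have close relatives and processed pseudogenes elsewhere in the genome. Reads shared with such copies make the split between these genes uncertain. Slc25a6, which the table lists as a processed pseudogene, had 1 to 10 counts in every library and was not tested.

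The ATP-Mg/phosphate carriers, which load the matrix with adenine nucleotides in answer to calcium, went the other way. Slc25a25 measured 101, 94.8 and 97.5 CPM in BMSCs-OE-NC and 81.0, 80.8 and 75.5 in BMSCs-OE-FNDC5 (log2 fold change -0.31, SE 0.04, adjusted p = 5.5e-05). Slc25a24 measured 64.5, 64.0 and 59.9 CPM against 48.0, 51.3 and 52.2 (-0.32, SE 0.05, adjusted p = 0.00015). Both fell without overlap of the groups, where 38.8% of all genes fell and 78.3% did not overlap. With the length trend removed the values were -0.07 (adjusted p = 0.18) for Slc25a25 and -0.01 (0.93) for Slc25a24, and against a fold of 1.2 (glmTreat) the adjusted p were 0.091 and 0.086. Slc25a23 and Slc25a41, the other members of the group, had no more than 3 counts in a library.

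All 3 tested carriers of di- and tricarboxylates and keto acids rose. They too lay at 10 FPKM or more, where 60.3% of all genes rose. Slc25a11, the oxoglutarate carrier of the malate-aspartate shuttle, measured 145, 142 and 143 CPM in BMSCs-OE-NC and 238, 246 and 259 in BMSCs-OE-FNDC5. This was a rise of 0.79 (SE 0.04, adjusted p = 4.1e-09). Slc25a10, the dicarboxylate carrier, measured 21.8, 23.1 and 21.3 CPM against 32.3, 32.5 and 34.5, a rise of 0.58 (SE 0.07, adjusted p = 1.1e-05). Slc25a1, the citrate carrier that exports carbon for lipid synthesis, rose by 0.79 (adjusted p = 2.4e-08). All 3 kept the call in every alternative. Slc25a20, which brings acylcarnitines in for fat oxidation, measured 41.3, 39.8 and 43.9 CPM against 57.2, 56.4 and 62.6. It rose by 0.50 (SE 0.06, adjusted p = 1e-05), and with library size only the value was 0.13 (adjusted p = 0.059).

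Amino acid carriers were divided. Slc25a38, the glycine carrier needed for haem synthesis, measured 35.9, 31.9 and 32.7 CPM in BMSCs-OE-NC and 57.1, 51.9 and 54.1 in BMSCs-OE-FNDC5, a rise of 0.70 (SE 0.06, adjusted p = 9.5e-07). Slc25a44, a carrier of branched-chain amino acids, measured 13.9, 12.8 and 12.6 CPM against 5.29, 6.88 and 7.94, a fall of 0.97 on the log2 scale (SE 0.15, adjusted p = 0.00013). The groups of both were far apart, and both calls held in every alternative.

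The aspartate/glutamate carriers, the partners of Slc25a11 in the malate-aspartate shuttle, differed from each other. Slc25a12 (aralar) measured 32.2, 30.0 and 31.4 CPM against 31.3, 30.3 and 31.6, with a log2 fold change of -0.00 (SE 0.06, adjusted p = 0.96). Its groups lay on top of each other. Slc25a13 (citrin) measured 5.15, 5.33 and 5.60 CPM against 2.84, 3.54 and 3.11, a fall of 0.76 (SE 0.16, adjusted p = 0.0013) that every alternative kept. Of the other amino acid carriers, the ornithine carrier Slc25a15 rose by 0.48 (adjusted p = 0.0058), with 0.11 (adjusted p = 0.44) for library size only. Its relative Slc25a2 (-0.87, adjusted p = 0.11) and the basic amino acid carrier Slc25a29 (-0.00, adjusted p = 0.99) did not pass.

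Slc25a22, a glutamate carrier, had the lowest fold change of all members at -2.60 (SE 0.83, adjusted p = 0.014), and it rested on few counts. Its counts were 12, 14 and 65 in BMSCs-OE-NC and 7, 3 and 1 in BMSCs-OE-FNDC5. The groups did not overlap, but a single control library held most of the reads. Slc25a22 passed the read filter through the BMSCs-OE-NC libraries alone, and was not tested where each library had to hold 10 counts. It is among the 12 carriers that fell and the 4 that did so past both thresholds. Without BMSCs-OE-NC replicate 3 the value was -1.38 (adjusted p = 0.12), and without BMSCs-OE-FNDC5 replicate 3 it was -2.15 (adjusted p = 0.053).

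The iron carriers changed places. Mitoferrin-1 (Slc25a37) and mitoferrin-2 (Slc25a28) are the paralogues that bring iron into the matrix for haem and iron-sulfur clusters, mitoferrin-1 being best known from erythroid cells and mitoferrin-2 being widely expressed. Slc25a37 measured 91.3, 97.0 and 97.2 CPM in BMSCs-OE-NC and 39.4, 38.2 and 33.2 in BMSCs-OE-FNDC5, and was 2.58-fold lower (log2 fold change -1.37, SE 0.06, adjusted p = 3.6e-09). Slc25a28 measured 60.1, 62.5 and 61.9 CPM against 119, 117 and 116 (log2 fold change 0.93, SE 0.04, adjusted p = 1.2e-09). By FPKM, Slc25a37 was the higher of the pair in every control library and the lower in every BMSCs-OE-FNDC5 library. Its share of their joint FPKM was 59.2%, 59.8% and 60.1% in BMSCs-OE-NC and 24.1%, 23.8% and 21.6% in BMSCs-OE-FNDC5.

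The log2 ratio of Slc25a28 to Slc25a37 within a library was -0.60, -0.63 and -0.65 in BMSCs-OE-NC and 1.60, 1.62 and 1.80 in BMSCs-OE-FNDC5. Such a ratio does not depend on how libraries are scaled. It differed by 2.30 (SE 0.07), a 4.92-fold change, with an exact permutation p of 0.1, which is the smallest that 3 libraries against 3 allow. The genes are of like length in the table, 1509 bases for Slc25a28 and 1575 for Slc25a37, and with the length trend removed Slc25a28 was at 0.62 and Slc25a37 at -1.66. Across all alternatives Slc25a28 ranged from 0.56 to 0.96 and Slc25a37 from -1.74 to -1.29. Slc25a37 lies at chr15:51128268-51168384 and Slc25a28 at chr1:263420061-263431290 in the table, both on the minus strand. The summed erythroid markers named above stayed under 4 CPM, with 6 of them at 0.

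The sequence before Slc25a28 (chr1:252491343-252491592, minus strand, RefSeq, GRCr8) is shown as that of the mitoferrin that rose. It holds 3 GC boxes, in capitals.
Slc25a28: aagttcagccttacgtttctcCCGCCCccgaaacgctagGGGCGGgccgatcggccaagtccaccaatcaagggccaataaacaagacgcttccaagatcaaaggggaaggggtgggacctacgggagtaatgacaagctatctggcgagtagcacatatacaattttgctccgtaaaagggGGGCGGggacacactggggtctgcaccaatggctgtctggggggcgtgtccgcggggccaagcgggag

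The glutathione carriers moved unequally. Slc25a39, which carries glutathione into mitochondria, measured 203, 189 and 190 CPM in BMSCs-OE-NC and 377, 375 and 385 in BMSCs-OE-FNDC5, a rise of 0.97 (SE 0.03, adjusted p = 4.5e-10). It was the strongest of the iron and glutathione group at 132 FPKM in the control. Slc25a40, its paralogue, was low at 2.26, 1.84 and 2.07 CPM against 2.84, 2.39 and 2.18 (0.26, SE 0.22, adjusted p = 0.29).

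**Figure D4:**
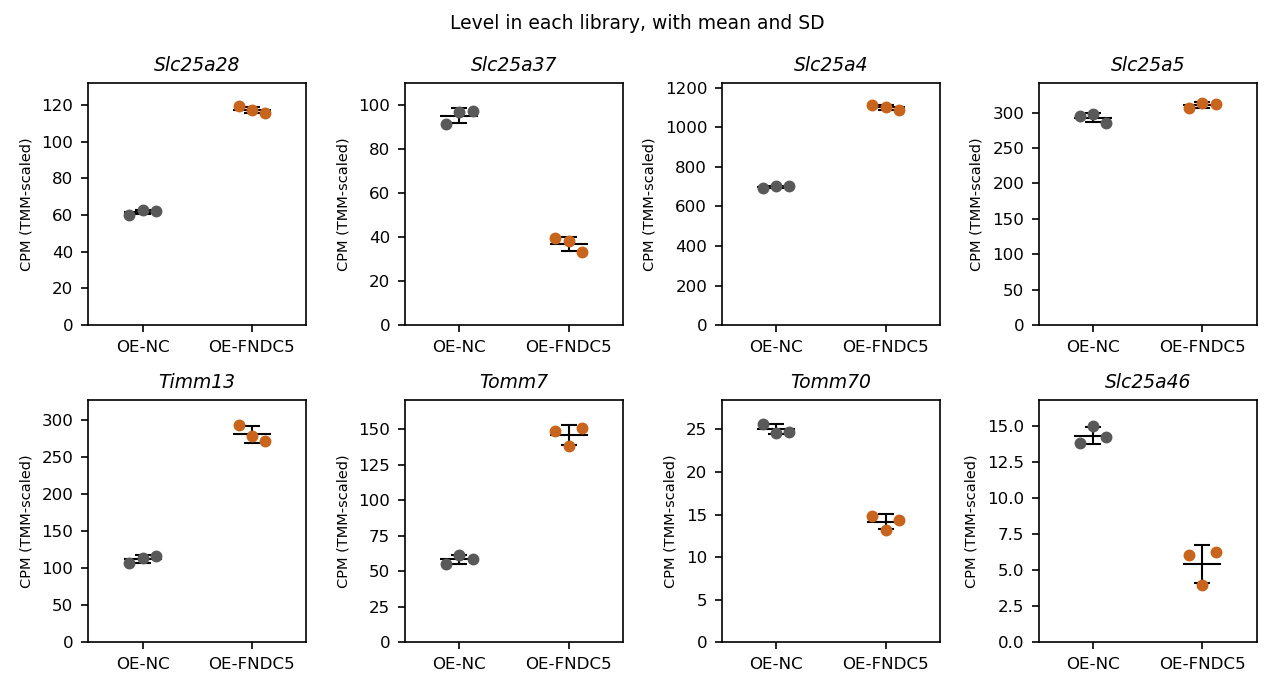
TMM-scaled CPM of single members in each of the 6 libraries, with mean and SD per group, each panel starting at 0. The libraries of Slc25a28 and Slc25a37 exchange their order between the groups, and those of Timm13 and Tomm7 are more than 2-fold apart.

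Carriers of nucleotides and cofactors split into 3 that rose, 5 that fell and 1 that did not pass. Of all genes, 36.9% rose and 38.8% fell. Slc25a42, a coenzyme A carrier, measured 21.8, 22.1 and 23.1 CPM in BMSCs-OE-NC and 45.2, 46.1 and 47.2 in BMSCs-OE-FNDC5. With 1.05 (SE 0.06, adjusted p = 1.7e-08) it was the carrier with the largest rise. The S-adenosylmethionine carrier Slc25a26 rose by 0.35 (adjusted p = 0.029). This rise was fragile and lost its call without BMSCs-OE-FNDC5 replicate 3 or without BMSCs-OE-NC replicate 1 or 3 (adjusted p 0.078 to 0.11).

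The pyrimidine nucleotide carriers went apart. Slc25a36 measured 6.38, 6.32 and 7.07 CPM in BMSCs-OE-NC and 2.18, 3.48 and 3.11 in BMSCs-OE-FNDC5, a fall of 1.17 (SE 0.19, adjusted p = 0.00017), and this gene is short at 936 bases. Slc25a33 measured 7.71, 10.1 and 7.62 CPM against 10.3, 9.13 and 8.61 (0.14, SE 0.15, adjusted p = 0.39). Slc25a32, which serves folate and FAD, measured 14.1, 15.2 and 13.3 CPM against 7.14, 10.2 and 7.61, a fall of 0.78 (SE 0.14, adjusted p = 0.00049). Slc25a36 and Slc25a32 kept the call in all alternatives. Slc25a17, which sits in the peroxisomal membrane, was the strongest of the group that fell. It measured 53.9, 52.6 and 55.3 CPM against 49.5, 48.5 and 46.9, a small fall of 0.16 (SE 0.05, adjusted p = 0.008) that did not pass with DESeq2 (adjusted p = 0.10) or glmTreat (0.96). Slc25a51, the NAD carrier, fell by 1.00 (adjusted p = 0.004) and Slc25a16 by 0.75 (adjusted p = 0.0007), and neither passed with the length trend removed (adjusted p 0.053 and 0.81).

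Slc25a46 sits in the outer membrane and takes part in mitochondrial fusion and fission. It measured 13.8, 15 and 14.2 CPM in BMSCs-OE-NC and 6.08, 3.95 and 6.29 in BMSCs-OE-FNDC5, a fall of 1.40 (SE 0.17, adjusted p = 1.4e-05) that held in every alternative. It overlaps Sap130, on the other strand, by 183 bases. The carriers Slc25a35 (-0.62, adjusted p = 0.19), Slc25a34 (-0.56, 0.14) and Slc25a45 (0.54, 0.23) did not pass. Slc25a35 overlaps Rangrf by 42 bases, and Rangrf had 3331 counts in all against 168. Neither tested carrier akin to uncoupling proteins passed. Slc25a30 measured 5.25, 4.88 and 5.50 CPM against 4.76, 4.43 and 3.38 (-0.32, SE 0.17, adjusted p = 0.12), and Slc25a14 measured 4.12, 2.14 and 3.74 against 3.30, 2.11 and 3.57 (-0.15, SE 0.28, adjusted p = 0.63).

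At the entry gate of the outer membrane, the pore and the small subunits Tomm5, Tomm6 and Tomm7 rose and a receptor fell. Of 9 TOM genes 6 rose, 1 fell and 2 did not pass, where 36.9% of all genes rose and 38.8% fell. Tomm40, the pore, measured 105, 105 and 98.9 CPM in BMSCs-OE-NC and 151, 151 and 144 in BMSCs-OE-FNDC5, a rise of 0.53 (SE 0.04, adjusted p = 1.9e-07), but 0.05 (adjusted p = 0.29) with the length trend removed. The receptors Tomm20 and Tomm22 rose by 0.44 (adjusted p = 1.4e-06) and 0.68 (adjusted p = 2.5e-08), and Tomm20 turned to -0.09 with the length trend removed and was at 0.07 (adjusted p = 0.12) with library size only.

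Tomm70, the receptor for precursors without a cleavable presequence, the carriers among them, measured 25.7, 24.6 and 24.7 CPM in BMSCs-OE-NC and 14.9, 13.2 and 14.4 in BMSCs-OE-FNDC5. It lies at chr11:45480250-45510961 on the minus strand in the table. The fall of 0.82 (SE 0.08, adjusted p = 4.5e-06) ranged from -1.19 to -0.73 over the alternatives. Tomm22 rose and Tomm70 fell in every alternative, while Tomm20 did not keep its direction.

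Tomm6 and Tomm7 are small subunits that shape the assembly of the complex. Tomm7 measured 55.0, 61.5 and 58.9 CPM against 149, 138 and 151, a rise of 1.32 (SE 0.05, adjusted p = 9.7e-10). Tomm6 measured 130, 132 and 125 CPM against 229, 226 and 210, a rise of 0.78 (SE 0.04, adjusted p = 1.1e-08). Both calls held in every alternative. Tomm7 is 376 bases long in the table and lies at chr4:7835949-7842789 on the plus strand. With the length trend removed its value was 0.63. Tomm5 rose by 0.31 (adjusted p = 0.034), lies on the same strand within the span of Fbxo10, and lost its call without replicate 2 of either group or BMSCs-OE-NC replicate 3 (adjusted p 0.099 to 0.15). Tomm34, a cochaperone in the cytosol (0.09, adjusted p = 0.44), did not pass. Neither did Tomm40l, a relative of the pore, which measured 11.8, 13.0 and 13.0 CPM against 13.7, 11.6 and 11.3 (-0.04, SE 0.11, adjusted p = 0.74).

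Of the 5 small TIM chaperones tested, 2 rose and 3 did not pass, where 36.9% of all genes rose. Timm13, the partner of Timm8a in the intermembrane space, measured 107, 114 and 116 CPM in BMSCs-OE-NC and 293, 278 and 271 in BMSCs-OE-FNDC5. The rise of 1.32 (SE 0.04, adjusted p = 2e-10) was 0.72 with the length trend removed. The gene is 805 bases long and lies at chr7:11677340-11678442 on the plus strand in the table. Timm10, which with Timm9 escorts carrier precursors, measured 19.7, 23.4 and 23.7 CPM against 40.4, 36.3 and 36.9, a rise of 0.77 (SE 0.08, adjusted p = 6.8e-06). Timm9, its partner in the hexamer, was at 0.09 (adjusted p = 0.42). The partner genes thus differed in their calls, though the difference between Timm9 and Timm10 was not tested.

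Timm8a1 was scattered, with counts of 165, 143 and 257 in BMSCs-OE-NC and 392, 124 and 175 in BMSCs-OE-FNDC5 (0.71, SE 0.36, adjusted p = 0.095). Its groups overlapped, and without BMSCs-OE-FNDC5 replicate 2 or without BMSCs-OE-NC replicate 3 the value was 1.00 (adjusted p 0.019 and 0.045), while without BMSCs-OE-FNDC5 replicate 1 it was 0.10 (adjusted p = 0.75). Timm10b measured 3.93, 4.13 and 2.62 CPM against 4.89, 3.14 and 3.44 (0.10, SE 0.24, adjusted p = 0.70).

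The sequences before Tomm7 (chr4:12197253-12197502, plus strand) and Timm13 (chr7:9459496-9459745, plus strand) are shown as those of the import genes that rose most (RefSeq, GRCr8). In Tomm7, capitals mark 1 GC box and 1 copy of GCGCA directly followed by its reverse complement TGCGC, the site of nuclear respiratory factor NRF1. Timm13 holds neither.
Tomm7: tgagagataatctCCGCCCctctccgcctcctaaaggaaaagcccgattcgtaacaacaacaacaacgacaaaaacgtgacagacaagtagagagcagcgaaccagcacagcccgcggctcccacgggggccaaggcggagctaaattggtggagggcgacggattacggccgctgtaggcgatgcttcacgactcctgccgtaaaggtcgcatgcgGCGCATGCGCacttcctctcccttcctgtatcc
Timm13: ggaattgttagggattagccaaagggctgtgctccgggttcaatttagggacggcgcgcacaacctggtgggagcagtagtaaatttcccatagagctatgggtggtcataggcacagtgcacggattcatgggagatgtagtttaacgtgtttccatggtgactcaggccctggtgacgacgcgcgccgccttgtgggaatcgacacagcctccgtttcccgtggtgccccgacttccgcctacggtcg

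Genes of the inner membrane translocases rose or did not pass. Timm23, the presequence channel, measured 116, 119 and 121 CPM in BMSCs-OE-NC and 179, 177 and 175 in BMSCs-OE-FNDC5, a rise of 0.58 (SE 0.03, adjusted p = 1.6e-08). Timm50, its receptor, measured 74.8, 74.7 and 76.8 CPM against 139, 132 and 129, a rise of 0.83 (SE 0.04, adjusted p = 4.9e-09). Both held in every alternative, with Timm23 as low as 0.10 with the length trend removed. Timm17a, the other channel subunit, rose by 0.39 (adjusted p = 4e-05) and turned to -0.17 with the length trend removed, with 0.02 (adjusted p = 0.75) for library size only. Timm44, which anchors the motor, rose by 0.27 (adjusted p = 0.00083) and turned to -0.10 with library size only. Timm21, which links the TOM and TIM23 complexes, was at -0.02 (adjusted p = 0.89).

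Timm22, the channel that inserts the carriers, measured 79.8, 85.0 and 84.4 CPM against 153, 148 and 148. It rose by 0.85 (SE 0.04, adjusted p = 2.9e-09), and by 0.48 to 0.88 over the alternatives. Timm29, its metazoan partner, was at 0.07 (adjusted p = 0.16). The route that carrier precursors take therefore held a receptor that fell (Tomm70), a chaperone that rose (Timm10) and another that did not pass (Timm9), and a channel that rose (Timm22).

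Ratios between paralogues within a library were compared for 10 pairs, with no need for scaling. For 7 pairs the groups did not overlap and the exact permutation p was 0.1, the smallest possible (0.143 after Benjamini-Hochberg adjustment over the 10 pairs). The groups did not overlap in 78.3% of all single genes tested, and no such share was worked out for other gene pairs. Slc25a28 over Slc25a37 changed most, at 2.30. Next came Slc25a33 over Slc25a36 with a difference of 1.34 (SE 0.32) and Slc25a12 over Slc25a13 with 0.75 (SE 0.12). Slc25a39 over Slc25a40 differed by 0.70 (SE 0.13), Tomm40 over Tomm40l by 0.58 (SE 0.10) and Slc25a4 over Slc25a5 by 0.57 (SE 0.03). In these 6 pairs the ratio shifted towards the gene named first. Slc25a10 over Slc25a11 shifted the other way by a small amount (-0.20, SE 0.04). Slc25a24 over Slc25a25 differed by -0.01 (SE 0.08, exact p = 0.9), Slc25a14 over Slc25a30 by 0.20 (SE 0.41, exact p = 0.7) and Timm10 over Timm10b by 0.66 (SE 0.29, exact p = 0.2).

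**Figure D5:**
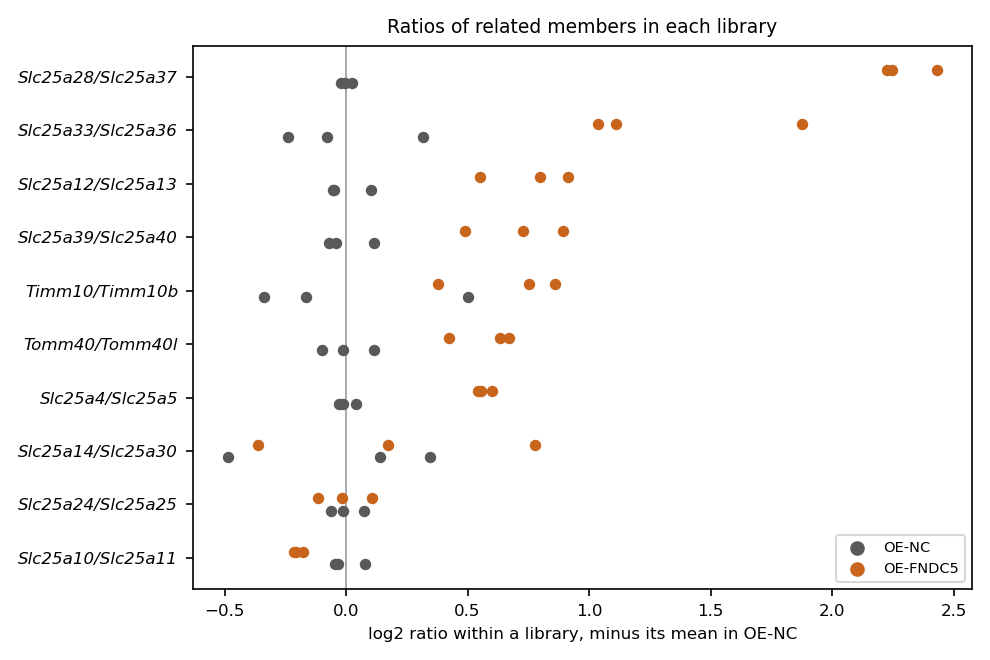
Log2 ratio of the first to the second gene of each of the 10 paralogue pairs in every library, minus the mean of that ratio in BMSCs-OE-NC. The BMSCs-OE-FNDC5 libraries of the mitoferrin pair lie farthest to the right, with a mean difference of 2.30. Before this subtraction the mean ratio was -0.63 in BMSCs-OE-NC and 1.67 in BMSCs-OE-FNDC5.

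Other genes of import and of mitochondrial transport were read from lists of known components. Of 23 tested import partners (the TIM motor, the assembly and processing machinery and the chaperones), 16 rose, 4 fell and 3 did not pass (69.6% and 17.4%, against 36.9% and 38.8% of all genes), with a median of 0.49 against -0.04 for all genes. Pam16, a motor subunit, rose by 1.64, Gfer, the sulfhydryl oxidase of the intermembrane space, by 1.12, Oxa1l, an inner membrane insertase, by 1.01 and Dnlz, a chaperone of the motor's Hsp70, by 1.15. Hspa9, that Hsp70 itself, fell from 163 to 78.8 CPM, a log2 fold change of -1.05. Genes of the motor thus moved in opposite directions. Of 22 tested genes for other mitochondrial membrane transport, 12 rose, 5 fell and 5 did not pass (54.5% and 22.7%), with a median of 0.32. Mtch1, an outer membrane relative of the carriers, rose from 768 to 1305 CPM, and Smdt1, a subunit of the calcium uniporter, rose by 1.10. The uncoupling protein Ucp2 rose by 1.97, while Ucp3 had no count. The import partners had a median length of 1575 bases and the other transport genes 2007, against 2262 for all genes tested. All genes of 1435 to 1835 bases had a median of 0.24, and those of 1836 to 2262 bases 0.08. These lists were tested in the same fit, and the length and scaling alternatives were not counted for them.

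Promoters of 62 of the 72 members were found in RefSeq, each 300 bases long. Those without an entry included Slc25a26, Slc25a30, Slc25a32, Slc25a36, Slc25a37, Slc25a46, Slc25a52, Timm29 and Tomm34. GGGCGG, searched on both strands, was in 34.9% of all 27457 promoters, which include those of genes not tested here. It was in 27 of 40 carrier promoters (67.5%) and 11 of 22 import promoters (50.0%). Among carriers that rose it was in 11 of 12, among those that fell in 7 of 8. Among import genes that rose it was in 7 of 13, and it was in Tomm70, which fell. The NRF1 site was in 0.932% of all promoters and in that of Tomm7 among the members. TGATGNAA, the composite site of ATF4, was in 3.82% and in those of Timm22 and Tomm40l. TCAAGGTCA, the site of the estrogen-related receptors, was in 0.412% and in that of Timm8b. These matches describe letters in a window and binding was not measured.

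The 15 members that were not tested had few reads. Slc25a31, a translocase of the testis, and Timm8a2 had no count in any library. With 0 counts a level of up to 0.147 to 0.151 CPM in a control library and 0.198 to 0.204 in a BMSCs-OE-FNDC5 library remains possible, which covers counting error only. Slc25a52, a processed pseudogene in the table, had 0, 0 and 1 counts in BMSCs-OE-NC and 5, 2 and 10 in BMSCs-OE-FNDC5. Timm8b had none in BMSCs-OE-NC and 3, 5 and 0 in BMSCs-OE-FNDC5, and overlaps Nkapd1, which had 804 counts. Timm17b had 3 counts in all and overlaps Pqbp1. Slc25a6 was given above, and Slc25a18, Slc25a21, Slc25a23, Slc25a27, Slc25a41, Slc25a43, Slc25a47, Slc25a48 and Slc25a54 had at most 4 counts in a library. The strand setting of the counting was not given in the sources used here, so reads of members and of overlapping genes on the other strand cannot be told apart.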

How the data were processed

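The data are RNA-seq libraries of hypoxic, serum-deprived cells, 3 for each group. The authors deposited 1 table of gene counts (whole numbers, not normalized) and FPKM values, which equal the count over gene length and a constant per library. The submitters' processing notes list, with no order, HTSeq 0.6.0, HISAT2 2.1.0, TopHat2, Bowtie2 2.2.3, DESeq2, CASAVA and the mouse build mm10, whereas the deposited gene identifiers are of the rat.

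For the tests, edgeR 4.0.16 was run on the counts in R 4.3.3 (filterByExpr with minimum count 10 and minimum total 15, TMM, glmQLFit and glmQLFTest), fitted on the whole table, with Benjamini-Hochberg adjustment over all 12104 genes. SE was the absolute log2 fold change over the square root of F. CPM are TMM-scaled. Pair ratios used counts plus 0.5 and a two-sided exact permutation test. Alternatives were DESeq2 1.42.0, limma 3.58.1 (voom, and log2(FPKM + 0.1 or 1)), glmTreat at 1.2-fold, other scalings and filters, a replicate block, a lowess length offset (span 0.3) and leaving out each library. The fit was tested on simulated data in which a small part of the genes changed and no trend with length was built in. That test therefore does not bear on the length and scaling settings.

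The members, lists and rules were chosen with earlier results of these data known. Values in every library are given for the strongest gene of each role, the 4 largest rises and falls per class with at least 5 CPM and no overlap, and paralogue pairs. Of other lists, up to 4 genes with the smallest p are named, and the remaining markers, Hspa9 and Ucp3 were added after their values were seen. Some genes that these rules name are not reported here, and counts include them. At 16640635 to 17965722 counts per library, 3 counts equal 0.147 to 0.204 CPM on the TMM scale.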

Additional observations from a re-analysis of the deposited data

How the results depend on the processing

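The carriers that rose or fell (14 and 12) came to 8 and 19 with library size only, and those past both thresholds (1 up, 4 down) to 0 and 10. The length offset gave 7 past both downwards, log2(FPKM + 1) gave 0 and 2, DESeq2 and no filter each gave 2 upwards and upper-quartile scaling 0. The carrier median of -0.00 became -0.37 with library size only, -0.11 with upper-quartile scaling, -0.092 with the length offset and 0.056 where each library had to hold 10 counts. With 1 library left out it was -0.045 to 0.037, and the falls past both numbered 3 to 7, with 7 without BMSCs-OE-FNDC5 replicate 3. Among import genes, the length offset and library size only each gave 6 falls in place of 1, and past both thresholds 0 rises in place of 2 and 1 fall in place of 0. The import median of 0.44 was 0.059 and 0.069 under these and 0.33 with upper-quartile scaling, and 0.37 to 0.47 with 1 library left out. The median of all genes shifted by -0.37 with library size only and by -0.10 with upper-quartile scaling. Beyond these constructions the cause was not tested.

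Single members changed sign as follows. With the length offset, log2 fold changes were -0.22 for Slc25a5, -0.12 for Slc25a26, -0.21 for Slc25a33, 0.21 for Slc25a29, -0.17 for Timm17a, -0.092 for Tomm20, -0.12 for Tomm34, -0.0073 for Timm8a1, -0.47 for Timm9 and -0.26 for Timm10b. With library size only they were -0.28 for Slc25a5, -0.10 for Slc25a40, -0.019 for Slc25a26, -0.23 for Slc25a33, -0.30 for Timm29, -0.10 for Timm44, -0.28 for Tomm34, -0.060 for Tomm5, -0.28 for Timm9 and -0.27 for Timm10b. Upper-quartile scaling gave -0.018 for Slc25a5, -0.031 for Timm29, -0.018 for Tomm34, -0.013 for Timm9 and -0.0013 for Timm10b. For Slc25a12, Slc25a29 and Timm21, all near 0, the values were 0.022, 0.024 and 0.0061 with DESeq2, 0.026, 0.028 and 0.010 with RLE scaling, 0.022, 0.018 and 0.0035 with log2(FPKM + 0.1) and 0.021, 0.016 and 0.0033 with log2(FPKM + 1). With 1 library left out the ranges were -0.039 to 0.018 for Slc25a12, -0.084 to 0.086 for Slc25a29, -0.40 to 0.049 for Slc25a14, -0.10 to 0.034 for Timm21, -0.13 to 0.012 for Tomm40l and -0.11 to 0.23 for Timm10b. Pair ratios moved by less than 1 SD under pseudocounts of 0.1 and 1. With 1 library left out, the difference for Slc25a14 over Slc25a30 ran from -0.095 to 0.47.

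Libraries with the same replicate number did not deviate together (correlations 0.02, -0.01 and -0.01), and not every library correlated best with its own number. With the replicate block 13 carriers rose and 12 fell, and 13 import genes rose and 1 fell. Only the call of Slc25a26 was lost among the members (adjusted p = 0.053). The summed levels over library size alone were an alternative chosen after seeing the data. Members with 3 counts or fewer in every library could not be compared at this depth. Slc25a40 and Slc25a14, under 5 CPM, had SE of 0.22 and 0.28.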
